A study of Mus musculus with 6 samples.

Results

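The adrenergic receptors are the receptors of noradrenaline and adrenaline. The members described are Adra1a, Adra1b, Adra1d, Adra2a, Adra2b, Adra2c and Adrb1, chosen by symbol, which makes 7 of the 22095 genes of the table. The data are read counts of polyadenylated RNA from olfactory bulbs of ICR mice, an outbred stock, whose left naris was closed with a silica gel plug at postnatal day 30 and whose bulbs were taken 60 days later. Mice 1037, 1038 and 1039 each gave both bulbs, with the left one on the plugged side and the right one on the open side, so all 6 libraries from these 3 mice come from operated animals. An effect of the plug and a standing difference of left and right bulbs cannot be told apart in this design, which has no unplugged mice. Nor can a change of the plugged side be told apart from one of the open side. Fell and rose here mean lower and higher on the left than on the right.

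The bulb receives dense noradrenergic fibres from the locus coeruleus of the brainstem, and the transmitter acts there on receptors of granule, mitral and other cells and is known for its part in odour learning. The alpha-1 receptors, encoded by Adra1a, Adra1b and Adra1d, couple to the G protein Gq and raise intracellular calcium through phospholipase C. The alpha-2 receptors, encoded by Adra2a, Adra2b and Adra2c, couple to Gi/o, lower cyclic AMP and open potassium channels. The beta-1 receptor, encoded by Adrb1, couples to Gs and raises cyclic AMP.

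The members are separate genes with separate transcripts, which is shown here by the stretch around the codons of the aspartate, arginine and tyrosine triplet at the inner end of the third transmembrane helix, a motif of this receptor class that takes part in coupling to the G protein. The 45 coding bases are written 5′ to 3′ from the GENCODE transcripts of GRCm38, and capitals mark the codons of the triplet.
Adra1a: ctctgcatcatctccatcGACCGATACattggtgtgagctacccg
Adra1b: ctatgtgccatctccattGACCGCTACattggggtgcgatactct
Adra1d: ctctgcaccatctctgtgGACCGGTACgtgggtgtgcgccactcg
Adra2a: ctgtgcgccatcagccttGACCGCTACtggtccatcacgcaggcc
Adra2b: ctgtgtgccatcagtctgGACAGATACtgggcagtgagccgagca
Adra2c: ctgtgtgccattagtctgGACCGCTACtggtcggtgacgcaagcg
Adrb1: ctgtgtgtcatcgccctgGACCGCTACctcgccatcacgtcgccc
In this conserved stretch 32 to 35 of the 45 bases were identical within the alpha-1 genes, 31 to 36 within the alpha-2 genes and 23 to 33 between classes. Over the whole coding sequences the longest run shared by any pair was 26 bases, between Adra2a and Adra2c, so no member is a near-identical copy of another. On GRCm38, Adra1a lies at chr14:66635251-66771168 on the plus strand, and Adra2a and Adrb1 lie on the same chromosome, at chr19:54044151-54048982 and chr19:56722199-56733113. The span of Adra1d, chr2:131545850-131562283 on the minus strand, overlaps that of the antisense gene Gm14285, which is not among the genes counted. Whether their exons overlap was not examined. Without a known strand setting, reads of any shared stretch cannot be told apart.

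The libraries held 14571453 to 15590938 counts, and expression is given in counts per 1000000 counts of the library (CPM). The library labelled left 1038 is set apart, because its markers go against its label. The cerebellar granule cell genes Cbln3, Gabra6 and Fat2 summed to 3167 CPM in it, against 1.35 to 3.17 CPM in the other 5 libraries, and the bulb interneuron factors Dlx2 and Dlx6 were at 0. The comparison of sides therefore used the left bulbs of mice 1037 and 1039 and the right bulbs of all 3 mice. It was fitted with edgeR's quasi-likelihood test, with Benjamini-Hochberg adjustment over all genes tested and a call at an adjusted p under 0.05. Each mouse is 1 pair of bulbs, and p-values rest on the spread between these 5 libraries. The fold changes of the fit include library scaling factors (TMM) that CPM do not carry, so they differ from ratios of the CPM given.

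The RNA of 1 alpha-1 receptor, Adra1a, was lower on the plugged side than on the open side, and that of 1 alpha-2 receptor, Adra2a, was higher. The other 4 tested members did not pass, and Adra2b had too few reads to be tested. Of the 6 tested members 1 was called lower and 1 higher, in a comparison that called 9.62% of 14412 genes (6.46% lower and 3.16% higher on the left). Scaled by total library size only, that split turned to 975 genes higher and 589 lower, against 456 and 931, with both calls of members kept. The median log2 fold change (left over right) of the tested members was -0.16, against 0.005 over all genes tested. The CPM of the sides did not overlap for 4 of the 6 tested members, where 46.4% of all tested genes had no overlap. In bulk RNA, fewer cells of a type and less RNA per cell cannot be told apart.

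**Figure D1:**
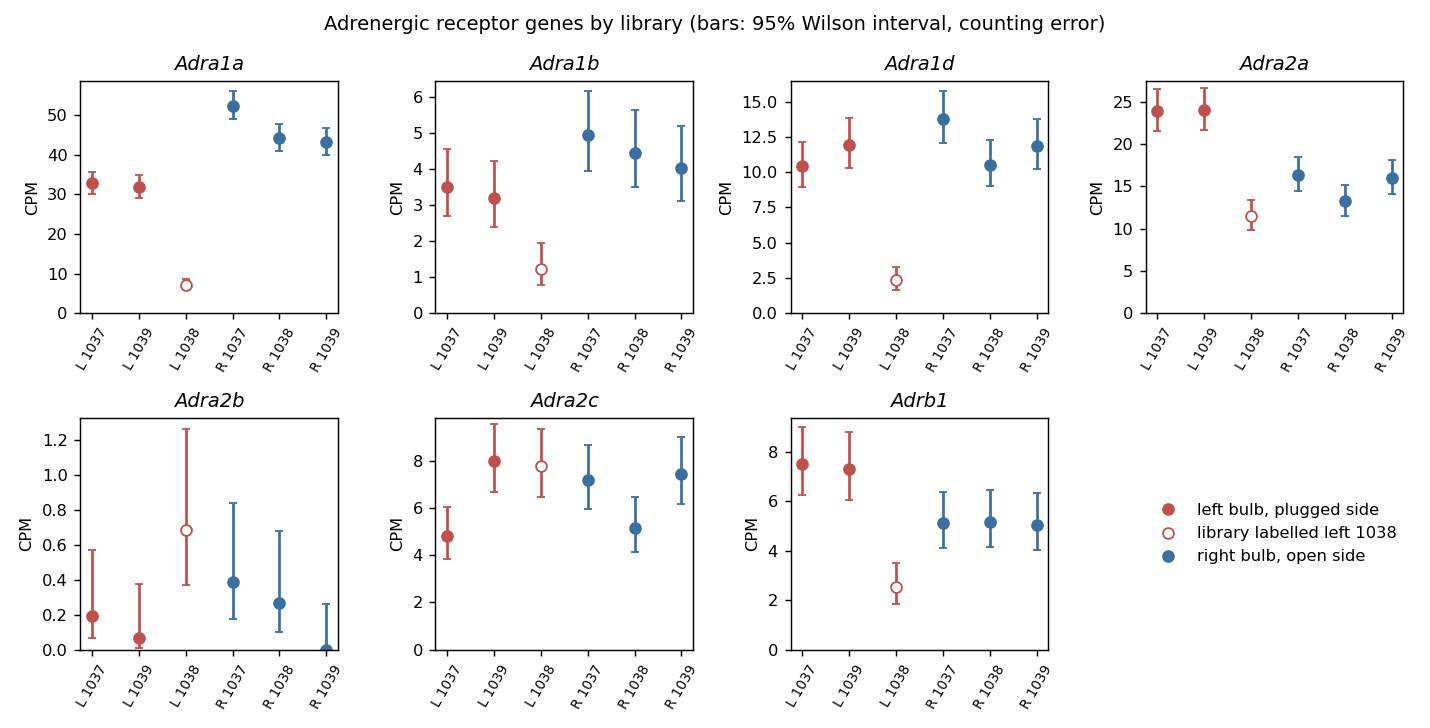
CPM of the 7 receptor genes in each library, left bulbs (L, plugged side) in red and right bulbs (R, open side) in blue, with 95% Wilson intervals for counting error; the open symbol is the library labelled left 1038. Adra1a and Adra1b lie lower and Adra2a and Adrb1 lie higher in both left bulbs of mice 1037 and 1039 than in any right bulb, while the sides overlap for Adra1d, Adra2b and Adra2c.

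Among the Gq-coupled receptors, Adra1a had the most reads of all members. It stood at 32.8 and 31.8 CPM in the left bulbs of mice 1037 and 1039, against 52.4, 44.3 and 43.2 CPM in the right bulbs of mice 1037, 1038 and 1039. Both left bulbs lay below every right bulb, and the left values were close to each other. Adra1a averaged 32.3 ± 0.698 CPM in left bulbs (SD, n = 2), against 46.6 ± 5.03 CPM in right bulbs (SD, n = 3). Adra1a fell by 0.61 on the log2 scale (SE 0.10, edgeR adjusted p = 0.00655), to 0.654 of the open-side level after TMM scaling. Scaled by total library size only, its log2 fold change was -0.53. Within mouse 1037 the log2 difference of CPM was -0.68, and within mouse 1039 it was -0.44. The call held in each of the 12 alternatives with these 5 libraries or 4 of them, with adjusted p from 6.16e-05 to 0.0296.

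Adra1b, a second Gq-coupled receptor, was low. It stood at 3.50 and 3.19 CPM in the left bulbs of mice 1037 and 1039, against 4.94, 4.44 and 4.03 CPM in the right bulbs of mice 1037, 1038 and 1039, so the sides did not overlap. Its log2 fold change of -0.50 (SE 0.22, edgeR adjusted p = 0.191) did not pass. These values rest on 48 to 77 reads per library. Adra1d stood at 10.4 and 11.9 CPM in the left bulbs of mice 1037 and 1039, against 13.8, 10.5 and 11.9 CPM in the right bulbs of mice 1037, 1038 and 1039. The left values lay within the range of the right ones or just below it, and the log2 fold change was -0.19 (SE 0.16, edgeR adjusted p = 0.494).

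Among the Gi/o-coupled receptors, Adra2a, known as a receptor both of noradrenergic terminals and of their target cells, was the member with the most reads. It stood at 23.9 and 24.0 CPM in the left bulbs of mice 1037 and 1039, against 16.3, 13.2 and 16.0 CPM in the right bulbs of mice 1037, 1038 and 1039. Both left bulbs lay above every right bulb. Adra2a averaged 24.0 ± 0.0864 CPM in left bulbs (SD, n = 2), against 15.2 ± 1.67 CPM in right bulbs (SD, n = 3). That left SD is smaller than counting error alone. The 95% Wilson intervals were 21.6 to 26.5 CPM in left 1037 and 21.7 to 26.6 CPM in left 1039. Adra2a rose by 0.58 on the log2 scale (SE 0.12, edgeR adjusted p = 0.0156), to 1.49 times the open-side level after TMM scaling. Scaled by total library size only, its log2 fold change was 0.66. The log2 difference of CPM was 0.55 within mouse 1037 and 0.59 within mouse 1039. The call ended where the left side was reduced to 1 library, at an adjusted p of 0.0518 without left 1037 and 0.0566 without left 1039, while the log2 fold change was 0.58 and 0.59.

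Adra2c, an alpha-2 receptor known from striatal and other forebrain neurons, stood at 4.79 and 7.97 CPM in the left bulbs of mice 1037 and 1039, against 7.18, 5.17 and 7.44 CPM in the right bulbs of mice 1037, 1038 and 1039. The left bulbs held both the lowest and the highest of these values, and the log2 fold change was -0.13 (SE 0.25, edgeR adjusted p = 0.795). Without left 1037 the log2 fold change was 0.19, and without left 1039 it was -0.53, so 1 library set its direction. Adra2b was close to the detection limit, with 3 and 1 reads in the left bulbs of mice 1037 and 1039 and 6, 4 and 0 reads in the right bulbs of mice 1037, 1038 and 1039. A count of 0 in right 1039 allows up to 0.205 CPM, taken as 3 counts, while its Wilson interval reaches 0.262 CPM, and such limits, like the intervals, hold for counting error alone.

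The Gs-coupled receptor gene Adrb1 stood at 7.52 and 7.30 CPM in the left bulbs of mice 1037 and 1039, against 5.13, 5.17 and 5.05 CPM in the right bulbs of mice 1037, 1038 and 1039. Both left bulbs lay above every right bulb. The values within a side lay closer together than counting error, with 95% Wilson intervals such as 6.27 to 9.01 CPM in left 1037 and 4.12 to 6.39 CPM in right 1037. The log2 fold change was 0.45 (SE 0.17, edgeR adjusted p = 0.123) and did not pass. At 74 to 116 reads per library the counting intervals of single left and right libraries overlapped. Adrb3, the beta-3 receptor known from fat tissue, is no member and had 5 to 17 reads in these libraries.

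**Figure D2:**
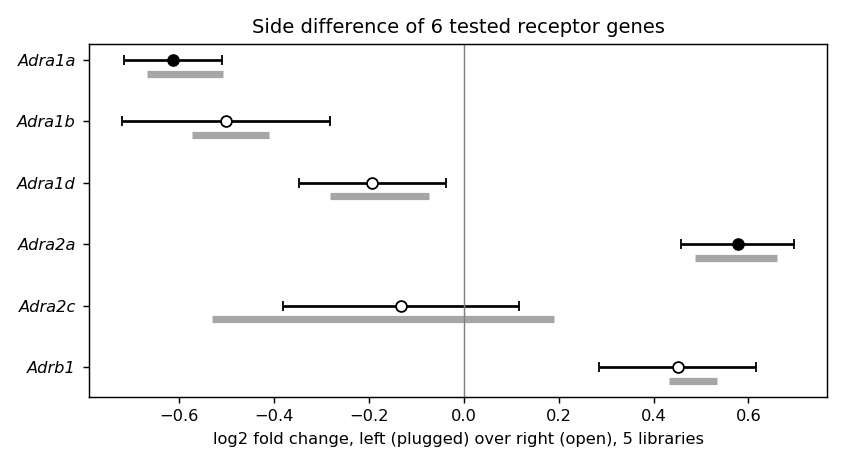
Log2 fold change, left (plugged side) over right (open side), of the 6 tested receptor genes in the 5 libraries, with bars for the SE; filled symbols passed at an adjusted p under 0.05, and grey bars span the values over 12 alternatives with these 5 libraries or 4 of them. Adra1a at -0.61 and Adra2a at 0.58 lie on opposite sides of 0, and the grey bar of Adra2c crosses 0.

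The opposite direction of Adra1a and Adra2a also shows within each library, where the ratio of their reads does not depend on the scaling. The reads of Adra2a over those of Adra1a came to 0.729 and 0.756 in the left bulbs of mice 1037 and 1039, against 0.311, 0.299 and 0.370 in the right bulbs of mice 1037, 1038 and 1039. The ratio was 0.742 ± 0.0187 on the left (SD, n = 2) and 0.327 ± 0.0377 on the right (SD, n = 3), which is 2.27 times higher on the left. An exact two-sided permutation test of the log2 ratio gave p = 0.2, which is the one-sided p of 0.1, the smallest that 2 against 3 libraries allow, doubled. The ratio was chosen after the values of both genes were seen, so it is a description of them and no further support.

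Levels of different genes were compared as CPM per kilobase of the gene's exons, joined over all its transcripts. On the left the order of the means was Adra1d at 5.89, Adra2a at 4.96, Adra1a at 3.70, Adrb1 at 2.19, Adra2c at 1.85, Adra1b at 0.988 and Adra2b at 0.0325 CPM per kilobase. On the right it was Adra1d at 6.35, Adra1a at 5.34, Adra2a at 3.14, Adra2c at 1.91, Adrb1 at 1.51, Adra1b at 1.32 and Adra2b at 0.0540 CPM per kilobase. Adra1a and Adra2a thus stood in the opposite order on the sides, and so did Adrb1 and Adra2c. The ranges of Adra2a (4.95 to 4.97) and Adra1a (3.64 to 3.76) did not overlap on the left, and neither did those of Adra1a (4.95 to 6.0) and Adra2a (2.74 to 3.37) on the right. Adrb1 and Adra2c overlapped on both sides, and Adra1d and Adra1a overlapped on the right, so these neighbours are not ordered beyond their spread. The place of Adra1a depends on the length used. Its exons span 8728 bases over all transcripts and 4282 in the longest one. With the longest transcript Adra1a stood first on both sides, at 7.54 CPM per kilobase on the left and 10.9 on the right. It was then above Adra2a on both sides, so their opposite order holds only for the joined exons. The place of Adra2a on the left does too. At its deposited length of 3801 bases, shorter than its 4832 bases of exon, it averaged 6.31 CPM per kilobase on the left and 3.99 on the right, so the left mean was then above that of Adra1d.

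**Figure D3:**
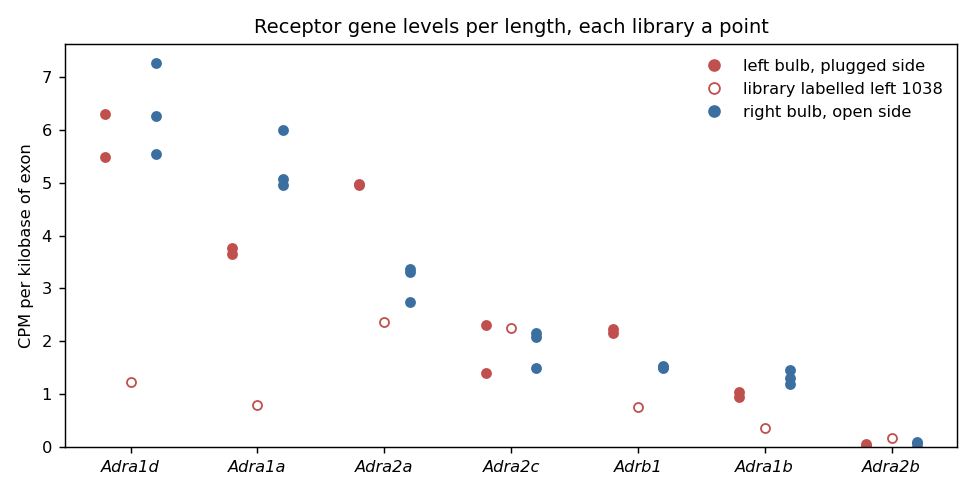
CPM per kilobase of exon of each receptor gene, 1 point per library, with left bulbs (plugged side) in red, the library labelled left 1038 as an open symbol and right bulbs (open side) in blue; genes are ordered by their mean over the 5 bulb libraries. At this length Adra1a lies below Adra2a on the left and above it on the right. With the longest transcript as the length, not drawn, Adra1a is above Adra2a on both sides.

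Summed per kilobase, the 7 genes came to 18.9 and 20.3 CPM in the left bulbs of mice 1037 and 1039, against 21.8, 17.8 and 19.4 CPM in the right bulbs of mice 1037, 1038 and 1039, so the sums overlapped between the sides. The alpha-1 genes held 54.4% and 53.5% of this sum in the left bulbs, against 67.6%, 67.2% and 64.0% in the right bulbs. The alpha-2 genes held 33.8% and 35.9% in the left bulbs, against 25.5%, 24.2% and 28.2% in the right bulbs. Adrb1 held 11.8% and 10.6% in the left bulbs, against 6.96%, 8.60% and 7.72% in the right bulbs. For none of the 3 classes did the shares of the sides overlap. With the longest transcript as the length the alpha-1 share was 61.4% and 60.0% in the left bulbs, against 74.2%, 74.0% and 71.0% in the right bulbs. Shares of a sum move together, and no test was made of them.

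**Figure D4:**
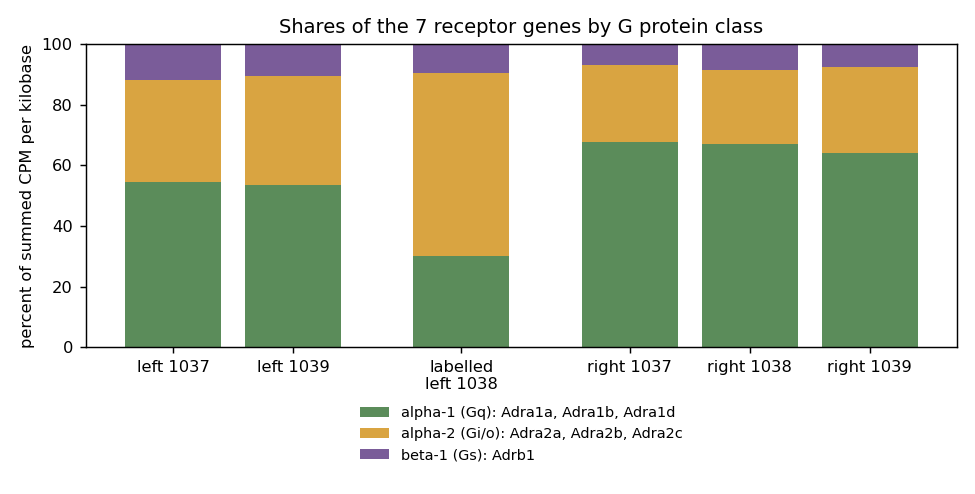
Share of the summed CPM per kilobase of the 7 genes held by the alpha-1, alpha-2 and beta-1 classes in each library, left bulbs (plugged side) first, then the library labelled left 1038, then right bulbs (open side). The alpha-1 share is 53.5% to 54.4% in the left bulbs, 30.2% in the library labelled left 1038 and 64.0% to 67.6% in the right bulbs.

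Among the cells the bulb holds, marker sums of several types differed between the sides. The 8 interneuron markers, which include the GABA synthesis genes Gad1 and Gad2, summed to 2877 to 3317 CPM on the left and 3778 to 4103 CPM on the right, with 3 of 8 called lower and 0 higher. Their median log2 fold change was -0.11, and Dlx1, Dlx2, Dlx5 and Dlx6, with -0.06, 0.02, -0.03 and 0.10, did not pass. Without Gad1 and Gad2 the sums overlapped, at 1222 to 1446 CPM on the left and 1291 to 1464 CPM on the right. The 6 astrocyte markers summed to 3009 to 3040 CPM on the left and 2438 to 2669 CPM on the right, with Gfap and Aqp4 called higher and 0 lower. Their median log2 fold change was 0.06, and Aldh1l1, Slc1a2 and Slc1a3, with -0.23, -0.09 and -0.02, did not pass. Without Gfap the sums were 2461 to 2465 CPM on the left and 2216 to 2406 CPM on the right. All marker sums here are scaled by total counts, without the TMM factors used in the fit. Those factors were 1.03 and 1.04 in left 1037 and left 1039 and 0.971 to 0.983 in the right bulbs. Division by them lowers the left sums and raises the right ones, so a small gap such as this is not beyond the scaling. The 5 microglia markers summed to 157 to 161 CPM on the left and 118 to 123 CPM on the right, with C1qa called higher. Their median log2 fold change was 0.26. The 4 sensory axon markers, Omp, S100a5, Stoml3 and Gng13, summed to 20.4 to 71.2 CPM on the left and 247 to 314 CPM on the right, and all 4 were called lower. Gng13 is not particular to these axons. It stood at 150 CPM in the library labelled left 1038, where Omp was at 0.137 CPM and S100a5 and Stoml3 at 0. The 6 mitral and tufted cell markers overlapped, with 2167 to 2573 CPM on the left and 2159 to 2216 CPM on the right, 2 called higher and 1 lower. Oligodendrocyte, vascular and cortical marker sums overlapped between the sides. These marker calls stand in a comparison that called 9.62% of 14412 genes (6.46% lower and 3.16% higher on the left). Of the 14 marker genes called, 8 passed in all 5 leave-outs, while Sp8, Gng13, C1qa, Slc17a6, Reln and Olig1 did not, with adjusted p up to 0.209. Sp8 did not pass without left 1037, and Gng13 did not without right 1037. C1qa did not pass without left 1037, right 1038 or right 1039, Olig1 without left 1039, right 1037 or right 1039, Reln without left 1037 or any right library, and Slc17a6 without any 1 of the 5. Which cells carry the receptor RNA is not measured here, and the part of these markers in the values of Adra1a and Adra2a was not tested.

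The genes with the profile most like that of Adra1a over the 5 bulb libraries, among 10485 others of at least 10 CPM, were Stk40, a pseudokinase, Magi3, a membrane scaffold protein, and Frmpd3, a FERM and PDZ domain protein. Their distances were 0.0679, 0.0759 and 0.0837, each the Euclidean distance between log2(CPM + 1) profiles centred on their mean. For Adra2a they were Ctss, the lysosomal protease cathepsin S known from microglia, Cobl, an actin nucleator, and Ankrd10, at distances of 0.0571, 0.0675 and 0.0898. Ctss stood at 62.0 and 62.5 CPM in the left bulbs of mice 1037 and 1039, against 43.7, 33.9 and 41.4 CPM in the right bulbs of mice 1037, 1038 and 1039. With 5 libraries, likeness of this kind describes the profiles and says nothing of shared control.

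Of the genes that make, store, take up and break down noradrenaline, Th, the rate-limiting enzyme of catecholamine synthesis, fell, and the others did not pass. All 11 of the list were in the table, 8 were tested, and 1 was called lower and 0 higher. Th, which in the bulb is mainly a gene of local dopaminergic neurons, fell by 1.82 (SE 0.12, edgeR adjusted p = 8.11e-05). Dbh, which turns dopamine into noradrenaline and marks noradrenergic neurons, stood at 0.324 and 0.199 CPM in the left bulbs of mice 1037 and 1039, against 0.128, 0.331 and 0.0683 CPM in the right bulbs of mice 1037, 1038 and 1039. Slc6a2, the noradrenaline transporter, had at most 0.205 CPM in any of these libraries. The cell bodies of these fibres lie outside the bulb, and both genes were too low to be tested. Slc18a2, the vesicular monoamine transporter, had a log2 fold change of -0.51 (SE 0.16, edgeR adjusted p = 0.0787).

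In the lists of G protein pathways and of receptor kinases and arrestins, 2 genes were called higher and 8 lower, besides Th. These genes are not particular to adrenergic receptors, and a link to the receptor values was not tested. Over all 5 lists 59 of 63 genes were tested, with 2 higher and 9 lower, in a comparison that called 9.62% of all genes (3.16% higher and 6.46% lower). Scaled by total library size only, 4 were higher and 6 lower. In the Gq list of 14 genes 2 were lower and 0 higher. The protein kinase C gene Prkca fell by 0.47 (SE 0.09, edgeR adjusted p = 0.0146), and the phospholipase C gene Plcb1 fell by 0.39 (SE 0.10, edgeR adjusted p = 0.0343). The Gq subunit gene Gnaq had a log2 fold change of -0.08. The list's median was -0.009. Prkca overlaps Apoh, so reads could be shared between them.

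In the Gi/o list, 13 of 14 genes were tested, with 2 lower and 0 higher. Rgs4, a regulator that shortens Gi and Gq signals, fell by 0.49 (SE 0.08, edgeR adjusted p = 0.00460), and Kcnj3, a subunit of the G protein gated potassium channel, fell by 0.42 (SE 0.09, edgeR adjusted p = 0.0171). The list's median was 0.06. In the Gs list of 17 genes, 4 were lower and 0 higher. The list holds 8 genes of adenylyl cyclases, the enzymes that make cyclic AMP, and the 4 called are among them. Adcy1 fell by 0.37 (SE 0.06, edgeR adjusted p = 0.00694), Adcy8 fell by 0.43 (SE 0.07, edgeR adjusted p = 0.00643), Adcy3 fell by 0.41 and Adcy9 fell by 0.43. The other cyclase genes Adcy2, Adcy5, Adcy6 and Adcy7 had log2 fold changes of -0.13, -0.04, 0.02 and 0.15 and did not pass. The list's median was -0.13. Adcy3 overlaps Cenpo, and Adcy8 overlaps Gm21798.

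Among the 7 receptor kinases and arrestins, which switch receptors off, 2 were higher and 0 lower. Grk3, a receptor kinase, rose by 0.35 (SE 0.08, edgeR adjusted p = 0.0212), and Arrb2, an arrestin, rose by 0.37 (SE 0.07, edgeR adjusted p = 0.0146). The related genes Grk2 and Arrb1 had log2 fold changes of -0.02 and -0.08. The list's median was -0.02. Th, Rgs4, Adcy1 and Adcy8 passed in all 5 leave-outs, while the others lost their call in at least 1, with adjusted p up to 0.153 for Plcb1, 0.0504 for Prkca, 0.0582 for Kcnj3, 0.156 for Adcy3, 0.139 for Adcy9, 0.0711 for Grk3 and 0.0559 for Arrb2. Prkca, Kcnj3, Adcy3, Adcy9, Grk3 and Arrb2 did not pass without right 1038, and the pathway count was 5 without it, against 11 with all 5 libraries. Plcb1, Kcnj3, Adcy9 and Grk3 did not pass without left 1037, and Adcy3 and Adcy9 did not without left 1039. Plcb1, Adcy3 and Adcy9 did not pass without right 1037, nor Plcb1 and Grk3 without right 1039. The log2 fold change of Prkca ranged from -0.65 to -0.30 over the leave-outs, that of Plcb1 from -0.55 to -0.24 and that of Kcnj3 from -0.58 to -0.26. For Adcy3 it ranged from -0.50 to -0.32, for Adcy9 from -0.51 to -0.35, for Grk3 from 0.28 to 0.41 and for Arrb2 from 0.34 to 0.41. Scaled by total library size only, Plcb1, Adcy3 and Adcy9 did not pass.

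**Figure D5:**
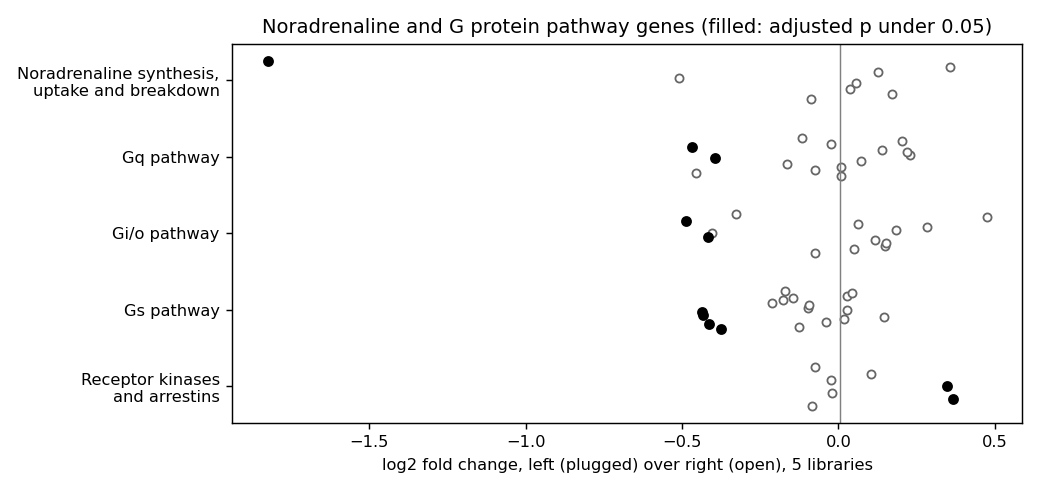
Log2 fold change, left (plugged side) over right (open side), of the tested genes of 5 lists, 1 point per gene; filled points passed at an adjusted p under 0.05 and the vertical line is the median of all genes tested, 0.005. Th lies far to the left at -1.82, and the 4 filled points of the Gs list, Adcy1, Adcy3, Adcy8 and Adcy9, lie between -0.43 and -0.37.

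In the library labelled left 1038 the alpha-1 genes were low, the alpha-2 genes were not uniformly so, and the values are given with no test, as it is 1 library. Adra1a stood at 7.0 CPM (95% Wilson interval 5.77 to 8.50), against 31.8 to 52.4 CPM in the 5 bulb libraries, whose median was 6.17 times as high. Adra1d stood at 2.33 CPM, against 10.4 to 13.8 CPM, and Adra1b at 1.24 CPM, against 3.19 to 4.94 CPM. Adra2a at 11.5 CPM (9.85 to 13.3) and Adrb1 at 2.54 CPM (1.84 to 3.50) were nearer to the bulb libraries, which held 13.2 to 24.0 and 5.05 to 7.52 CPM. Adra2c, at 7.75 CPM, lay within the range of 4.79 to 7.97 CPM of the bulb libraries. Here the alpha-2 genes held 60.4% of the summed CPM per kilobase and the alpha-1 genes 30.2%.

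With this library counted as a left bulb, as its label has it, edgeR called 0 of 14209 genes (0.00%), with 1196 at an unadjusted p under 0.05, and 0 of the 6 tested members at either level. The log2 fold change was then -1.03 for Adra1a (adjusted p = 0.556) and 0.32 for Adra2a (adjusted p = 0.663).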

How the data were processed

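Per the file headers, the authors deposited a read count and an RPKM value per gene and library. The counts were taken as not normalized, and the RPKM values recomputed from them and the deposited length to within 3.8e-11. That length was the genomic span, introns included, for 78.34% of annotated genes, so the deposited RPKM values were not used. The submitters' processing notes name the build GRCm38 and, without their roles, the tools DESeq 1.18.0, HTSeq 0.6.1p2, cutadapt 1.2.1 and TopHat2. Strand setting and multi-mapping are not given in the sources used here.

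Of 22095 genes, 21852 matched a symbol and GENCODE M21 gene model. Counts were tested with edgeR 4.0.16 (TMM, filterByExpr, glmQLFit, glmQLFTest) under R 4.3.3 on the 5 libraries other than that labelled left 1038, by side alone. The SE is the absolute log2 fold change divided by the square root of F. Alternatives were RLE factors, total library size, no filter, 1 CPM in 3 libraries, DESeq2 1.42.0, limma-voom 3.58.1, the mouse as a block, all 6 libraries, and each library left out. The test was checked on simulated data. The share of false calls there was above the level set by the threshold, and some changed genes were missed.

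Members and lists were chosen with earlier results of these data known. The Gq list is given without 1 gene, which is in none of the counts and is not reported here. Named genes were all members, Adrb3, Dbh, Slc6a2, the called genes of each list with the smallest p (at most 6), marker genes beside a result, and the 3 genes most like each called member. Others, such as Gnaq, Grk2, Arrb1 and Slc18a2, were named after their values were seen. The bulbs of 1 mouse share its number, so the labels pair them. Within a pair, deviations from the mean of each side correlated at 0.0568, 0.0473 and 0.122 in mice 1037, 1038 and 1039 over all 6 libraries, that labelled left 1038 included, and at 0.278 over the 4 libraries of mice 1037 and 1039.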

Additional observations from a re-analysis of the deposited data

Results flagged for a closer look

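The library labelled left 1038 was left out of the comparison of sides, and 2 members were higher in it than in every right bulb. Adra2b had 0.686 CPM there, from 10 reads, and right bulbs had 0 to 0.385 CPM. Adra2c had 7.75 CPM there, and right bulbs had 5.17 to 7.44 CPM, while left 1039 had 7.97 CPM. The 95% Wilson interval of Adra2c there was 6.45 to 9.32 CPM. It overlapped those of right 1037 (5.97 to 8.64 CPM) and right 1039 (6.17 to 8.97 CPM), but not that of right 1038. The 95% Wilson interval of Adra2b, 0.373 to 1.26 CPM, overlapped those of right 1037 and right 1038, which reached 0.840 and 0.681 CPM. This library also carried the cerebellar markers, whose part in these values was not tested.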

How the results depend on the processing

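With all 6 libraries, without or with the replicate block of the mouse, edgeR called 0 genes, 0 members and 0 pathway genes, against 1387, 2 and 11 in the 5 libraries. Leaving out 1 library in turn gave 660 to 1096 genes, 1 to 2 members and 5 to 11 pathway genes, with 885 genes without left 1039, 669 without right 1037 and 660 without right 1038. Scaled by total library size only, 975 genes were higher and 589 lower, against 456 and 931. With the mouse as a block in the 5 libraries, which then rests on mice 1037 and 1039, edgeR called 1553 genes, 2 members and 14 pathway genes, and the block changed no call of a member. Adra2c reversed to 0.007 with all 6 libraries and ranged from -0.53 without left 1039 to 0.19 without left 1037, and Adrb1 to -0.0064 with all 6 libraries and the replicate block. The cause was not tested. The other settings kept the direction of each tested member. Adra2b, with 0 to 6 reads per library, could not be tested at this depth. For Adra2c the counting intervals of left 1037 (3.82 to 6.02 CPM) and left 1039 (6.66 to 9.52 CPM) did not overlap. The deposited length for Adra2a and Adrb1 was an alternative chosen after seeing the data.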
